A study of Mus musculus with 94 samples.

Results

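Brains of vehicle-treated Mgmt-/- mice were compared with brains of vehicle-treated wild-type (wt) mice 168 hr after injection. The members were the arrays titled with genotype, vehicle, 168 and an animal number, 12 of the 94 arrays of the series, 6 per genotype and 1 array per animal. All were males of 11 weeks on a C57BL6 background, and each had received a single injection of the vehicle, acetic acid in saline, which is the solvent of the genotoxin methylazoxymethanol (MAM) given to other animals of the study. Total RNA of a half-brain was hybridised to the Affymetrix whole-genome mouse array, on which a gene is read by 1 or more probe sets. The animal numbers in the labels fall into 2 sets, each with 3 Mgmt-/- and 3 wt animals. Within each genotype the animals are called 1 to 6 here, in the order of their numbers, so that animals 1 to 3 are number set 1 and animals 4 to 6 are number set 2. The study was run at a pair of laboratories, but the sources used here do not say whether a number set is a laboratory, and the sets are named by their animal numbers only. Which part of Mgmt the mutation removes, and whether the wt mice were littermates, the sources do not tell either.

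Mgmt encodes O6-methylguanine-DNA methyltransferase, which takes the methyl group off O6-methylguanine and is consumed in doing so. Without it the lesion stays in DNA, pairs with thymine at replication and draws in mismatch repair. Adult brain, where few cells divide, is known for low activity of this enzyme. Vehicle itself sets no such lesion, so these arrays asked how the brains of the 2 genotypes differed without the toxin, at the last time point of the study.

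Values are log2 expression levels, and a difference is Mgmt-/- minus wt on that scale. A probe set was called where its difference passed a false discovery rate of 0.05 (limma, with the number set as a blocking term, p-values adjusted over all 45101 probe sets) and exceeded 1.3-fold. A gene was called where any probe set naming that gene alone was called. Animal numbers mark separate animals, but the sources do not say how animals were spread over cages and processing days, so the p-values measure only the spread between these animals.

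The arrays resembled each other closely, with a mean correlation to the other 11 arrays of 0.987 to 0.994, and Snap25, a presynaptic marker of neurons, was between 12.95 and 13.22 in Mgmt-/- brain and between 12.99 and 13.11 in wt brain. A few arrays stood apart in transcripts of other tissues. Alb (serum albumin, made in liver) was 9.41 and 8.75 in Mgmt-/- animals 2 and 3 and 10.66 in wt animal 3, against 5.50 to 6.64 in the other Mgmt-/- animals and 5.89 to 7.88 in the other wt animals. Gh (pituitary growth hormone) was 10.22 in wt animal 2 and at most 5.56 elsewhere. In number set 2 the 3 wt arrays differed from wt arrays of earlier times in many genes, as described with the number sets, so the differences of the called genes named here are also given by number set, set 1 before set 2.

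Of 18194 genes, 108 were called, 38 higher (0.209%) and 70 lower (0.385%), from 50 and 95 probe sets (0.111 and 0.211% of all probe sets). Among the falls were Ap2b1, a subunit of the AP-2 adaptor of clathrin-coated vesicles, Eml2, a microtubule-associated protein, Dlg4, the postsynaptic scaffold PSD-95, Camk2a, the alpha subunit of the calmodulin-dependent kinase of synapses, Cnr1, the cannabinoid receptor of presynaptic terminals, and the imprinted long RNA Rian. Among the rises were Zfp932, a zinc-finger protein, Ccnk, the cyclin partner of a transcription elongation kinase, Pard3, a scaffold of cell polarity, and the chromatin genes Arid1a and Kmt2e. Without adjustment, 6154 probe sets (13.6%) had p under 0.05. The count of 108 changed by more than 1.5 times without Mgmt-/- animal 2 (30), 5 (47) or 6 (70) or wt animal 2 (25), 3 (43), 5 (27) or 6 (32).

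Ap2b1 had the smallest p-value of all probe sets (adjusted p = 3.38e-06, limma). Its level was 8.17, 8.63, 8.21, 7.22, 7.23 and 7.16 in Mgmt-/- animals 1 to 6. In wt animals 1 to 6 it was 9.87, 10.12, 9.73, 8.77, 8.75 and 8.60. Within each number set every Mgmt-/- animal lay more than a log2 unit below every wt animal, while levels in set 2 were lower in both genotypes, so that the lowest wt value fell just under the highest Mgmt-/- value. The difference was -1.54 (SE 0.09), with -1.57 in set 1 and -1.50 in set 2. Eml2 was 7.66, 8.18, 8.30, 7.20, 7.19 and 7.15 in the Mgmt-/- animals in the same order and 9.28, 9.16, 8.70, 8.42, 8.42 and 8.31 in the wt animals. All Mgmt-/- values were below all wt values, and the difference was -1.10 (SE 0.11, adjusted p = 0.00126, limma; -1.002 in set 1 and -1.20 in set 2). Both calls held whichever animal was left out. Eml2 has 1 probe set on the array. The other Ap2b1 probe sets differed by -0.24 and -0.02.

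**Figure D1:**
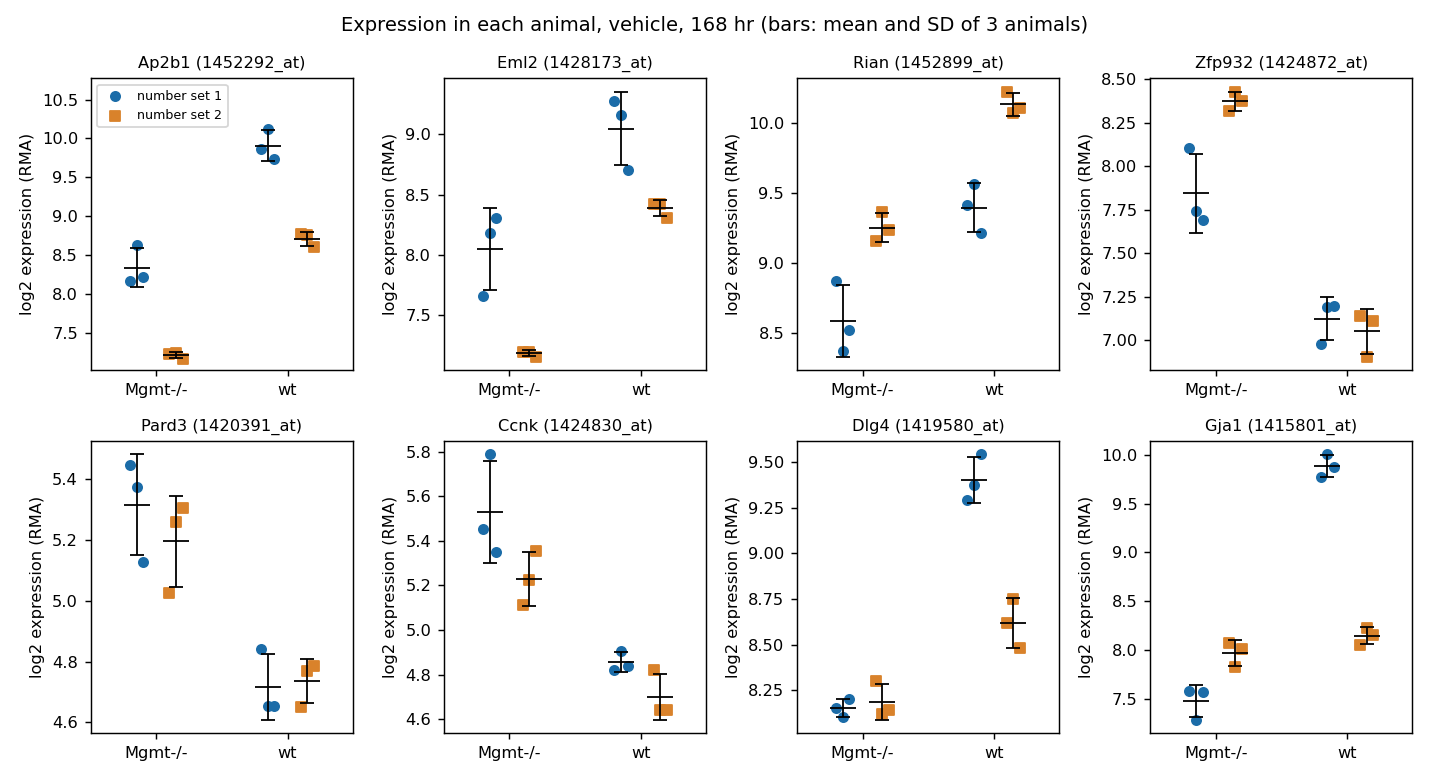
Log2 expression (RMA, vertical axes) in each vehicle-treated animal at 168 hr, Mgmt-/- left and wt right, blue circles for number set 1 and orange squares for number set 2, with bars at the mean and SD of 3 animals. In Ap2b1, Eml2, Rian, Zfp932, Pard3 and Ccnk the genotypes are apart in both sets, while in Dlg4 and Gja1 the wt animals of set 2 lie near the Mgmt-/- animals.

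Dlg4, Cnr1 and Camk2a fell. Dlg4 was 8.15, 8.10, 8.20, 8.30, 8.12 and 8.14 in the Mgmt-/- animals, against 9.29, 9.38, 9.54, 8.62, 8.75 and 8.48 in the wt animals. The Mgmt-/- animals were alike in both sets, and the wt animals of set 2 were below those of set 1. The difference was -0.84 (SE 0.13, adjusted p = 0.0191, limma), with -1.25 in set 1 and -0.43 in set 2, and the 2 sets differed (interaction, adjusted p = 0.00701, limma). Without Mgmt-/- animal 2 or wt animal 2 this call was lost, with adjusted p up to 0.0616. A further probe set of Dlg4 was also called, with -1.43. Cnr1 was 5.79, 5.46, 5.77, 5.50, 5.79 and 5.58 in the Mgmt-/- animals and 7.06, 7.35, 6.93, 6.17, 5.95 and 6.04 in the wt animals. It showed the same arrangement, with no overlap of genotypes and a smaller gap in set 2 (-1.44 in set 1, -0.43 in set 2, -0.94 over both sets, adjusted p = 0.0278, limma). Its other probe set differed by 0.02. Camk2a was 8.04, 7.32, 7.34, 7.70, 7.69 and 7.88 in the Mgmt-/- animals and 8.95, 8.37, 8.46, 8.63, 8.59 and 8.51 in the wt animals on its leading probe set. Here the sets were alike, with -1.03 and -0.82, and the call (-0.92, adjusted p = 0.00967, limma) held without any 1 animal. A second Camk2a probe set was called with -0.96, and the other 4 lay between -0.10 and 0.22.

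Eif4a1, Qk, Cap1, Enc1 and Acsl4 fell, with the larger difference in set 1. Eif4a1, the helicase of translation initiation, differed by -0.89 (-1.38 in set 1, -0.40 in set 2) and by -1.10 on a further called probe set, with 0.07 on the remaining one. Qk, an RNA-binding protein of glia, differed by -0.89 (-1.36 and -0.42), with -0.15 to 0.22 on its other probe sets. Cap1, a regulator of actin turnover, differed by -0.97 (-1.62 and -0.31) with interaction adjusted p = 0.00117 (limma). Enc1, an actin-associated protein of neurons, differed by -0.86 (-1.24 and -0.48) on its dimmest probe set, with -0.03 and 0.03 on its brighter ones. Acsl4, which loads arachidonic acid onto coenzyme A, differed by -0.76 (-1.29 and -0.24), with -0.09 on its brightest probe set and -0.63 on the remaining one. The call of Acsl4 was lost in each of the 12 fits that left out 1 animal (adjusted p up to 0.118, limma). In each of these genes, on the probe set given, all 6 Mgmt-/- animals lay below all 6 wt animals. Hnrnpab, an hnRNP protein, had -1.03 (-1.21 and -0.85) and Erdr1, a gene near the pseudoautosomal region, -1.38 (-2.08 and -0.68), but here the genotypes overlapped in set 2. The other Hnrnpab probe sets had -0.10 to 0.05, and the other one of Erdr1 had -0.04. Pisd-ps3, a pseudogene whose probe sets may read its parent gene too, had -1.31 (-1.17 and -1.45), with no overlap, and of its other 4 probe sets 2 had -0.89 and -0.98 and the 2 brightest 0.16 and 0.13.

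Over the called probe sets the median rise was 0.49 and the median fall -0.59. Zfp932 was 8.10, 7.74, 7.69, 8.31, 8.43 and 8.37 in the Mgmt-/- animals, against 6.98, 7.19, 7.20, 7.14, 6.90 and 7.11 in the wt animals. Every Mgmt-/- animal was above every wt animal, by 1.02 on average (SE 0.11, adjusted p = 0.00199, limma; 0.72 in set 1 and 1.32 in set 2). Ccnk was 5.45, 5.79, 5.35, 5.11, 5.23 and 5.35 in the Mgmt-/- animals and 4.82, 4.91, 4.84, 4.82, 4.64 and 4.64 in the wt animals (0.60, adjusted p = 0.00734, limma; 0.67 in set 1 and 0.53 in set 2). Pard3 differed by 0.53 (0.60 and 0.46), without overlap, and its other 3 probe sets were also higher, by 0.19 to 0.33, without a call. These 3 calls held without any 1 animal. Tmem267, a membrane protein, had the largest rise (1.32, with 1.73 and 0.91) but the widest spread, 6.61 to 8.26 in Mgmt-/- brain and 5.61 to 6.81 in wt brain. Its call was lost in 7 of the 12 fits without 1 animal. Genes of chromatin were among the 38: Arid1a, a subunit of the SWI/SNF remodeler, with 0.52 (0.42 and 0.62), Kmt2e with 0.61 (0.72 and 0.49) and Kmt2a with 0.43 (0.33 and 0.52), both of the MLL family, Kdm2a, a histone demethylase, with 0.44 (0.41 and 0.46), Brd3, a reader of acetylated histones, with 0.51 (0.39 and 0.63), and Gatad2b, of the NuRD complex, with 0.38 (0.44 and 0.33). They were picked from the called genes after their values were seen and support no statement on chromatin genes as a group. Kmt2a, Kdm2a, Brd3 and Gatad2b fall outside the rule by which the other genes were named. The brightest probe set of Kmt2e had -0.01 (-0.16 and 0.14), and its remaining uncalled ones had -0.06 to 0.40. The other, brighter probe set of Arid1a had 0.21 without a call.

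Some called probe sets match more than 1 gene. A probe set of Ube2l3, a ubiquitin-conjugating enzyme, and of 4 related sequences was lower on every Mgmt-/- array (8.68 to 8.92) than on every wt array (9.69 to 10.02), with -0.9998 (SE 0.07, adjusted p = 1.25e-05, limma; -1.11 and -0.89 by set). One shared by Tmem254a, Tmem254b and Tmem254c was higher, 7.86 to 8.41 in Mgmt-/- and 7.15 to 7.30 in wt brain (0.90, adjusted p = 4.62e-04, limma; 0.78 and 1.03 by set). The probe set shared by Entpd4 and Entpd4b with the smaller p had 0.55 (0.66 and 0.45) and that of the Plac9 genes 0.55 (0.49 and 0.62). Which member of each group carried the change cannot be read from these probe sets.

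Rian is a long noncoding RNA transcribed from the maternal chromosome of the Dlk1-Dio3 imprinted region, where it spans small nucleolar RNAs and microRNAs. On its leading probe set it was 8.87, 8.37, 8.51, 9.15, 9.37 and 9.23 in the Mgmt-/- animals and 9.41, 9.56, 9.21, 10.22, 10.07 and 10.11 in the wt animals. Mgmt-/- animals were lower in each set, by 0.81 and 0.88, and set 2 was higher in both genotypes. The difference was -0.85 (SE 0.09, adjusted p = 0.00126, limma), and it was -0.86 on a second called probe set. The other 2 Rian probe sets had 0.18 and 0.35 without a call. Neighbouring RNAs of the same strand did not pass the test at 168 hr. Meg3 had 11 probe sets between -0.61 and 0.42 and Mirg 2 with 0.22 and 0.30, with 0 called. In the other comparisons some Meg3 probe sets passed, with a direction that differed by probe set and time. One had 0.88, 1.51 and 1.15 at 6, 24 and 48 hr (adjusted p = 0.0238, 3.54e-05 and 0.0124, limma). Another had -0.64 after MAM at 168 hr (adjusted p = 0.00834, limma). In the same comparison at other times the leading probe set of Rian differed by -0.57 at 6 hr, -0.36 at 24 hr and -0.12 at 48 hr, and by -1.05 at 168 hr after MAM. The test of the difference between 168 hr and the mean of the earlier times missed the threshold (-0.50, adjusted p = 0.233, limma).

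The mature miRNAs that RefSeq (GRCm38.p6) places inside Rian, which runs from 109603945 to 109661716 on chromosome 12, are shown because the called probe sets read the transcript that spans them. Their own levels were not measured on these arrays. All are given 5′ to 3′ on the plus strand with the seed, bases 2 to 8, in capitals.
miR-341-5p: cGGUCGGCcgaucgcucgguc
miR-341-3p: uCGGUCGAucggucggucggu
miR-1188-5p: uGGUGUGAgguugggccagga
miR-1188-3p: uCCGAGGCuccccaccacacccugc
miR-370-5p: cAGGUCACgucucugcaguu
miR-370-3p: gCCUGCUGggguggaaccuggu
The 6 seeds are all different, and the 3 hairpins lie at the 5′ part of the transcript.

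All 50 probe sets called higher and all 95 called lower had the same direction in both number sets, which the call itself favors. In 46 of the 50 and 90 of the 95 the genotypes did not overlap within either set, against 1.36 and 1.18% of all probe sets, and 26 and 68 had no overlap over all 12 arrays, against 0.521 and 0.647%. The call, made on these same arrays, favors this too. Falls were larger in set 1 for 85 of 95 probe sets (medians -0.80 and -0.40), while rises were nearly even (0.51 and 0.46). The interaction of genotype and number set passed the test for 22 of the 95 and 1 of the 50, against 2.34% of all probe sets.

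Each number set fitted alone gave a different picture. Set 1 had 53 genes higher and 558 lower (0.291 and 3.07%), from 0.142 and 1.58% of probe sets. Without the 3 animals of high albumin (Mgmt-/- 2 and 3 and wt 3), which leaves 1 Mgmt-/- and 2 wt animals, set 1 gave 38 genes in all, against 609 with them. Set 2 had 1.95% of genes higher (354 genes) and 0.599% lower, from 1.08 and 0.29% of probe sets. Of the probe sets lower in set 1, 26 (3.65%) were called lower in set 2 and 13 higher, and their median was -0.88 in set 1 and -0.02 in set 2. Of the 487 higher in set 2, 6 (1.23%) were called higher in set 1 and 13 lower, with a median of 0.52 in set 2 and -0.03 in set 1. Over all probe sets the differences of the 2 sets had a correlation of -0.04, as a description over probe sets that share their arrays, and 47.7% had the same sign. In all 1054 probe sets passed the interaction test, 889 of them with a negative difference in set 1 and a higher one in set 2. This count was 5733 without Mgmt-/- animal 1, 528, 512, 537 and 448 without Mgmt-/- animals 2, 4, 5 and 6, and 533, 476, 451 and 486 without wt animals 2, 4, 5 and 6.

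**Figure D2:**
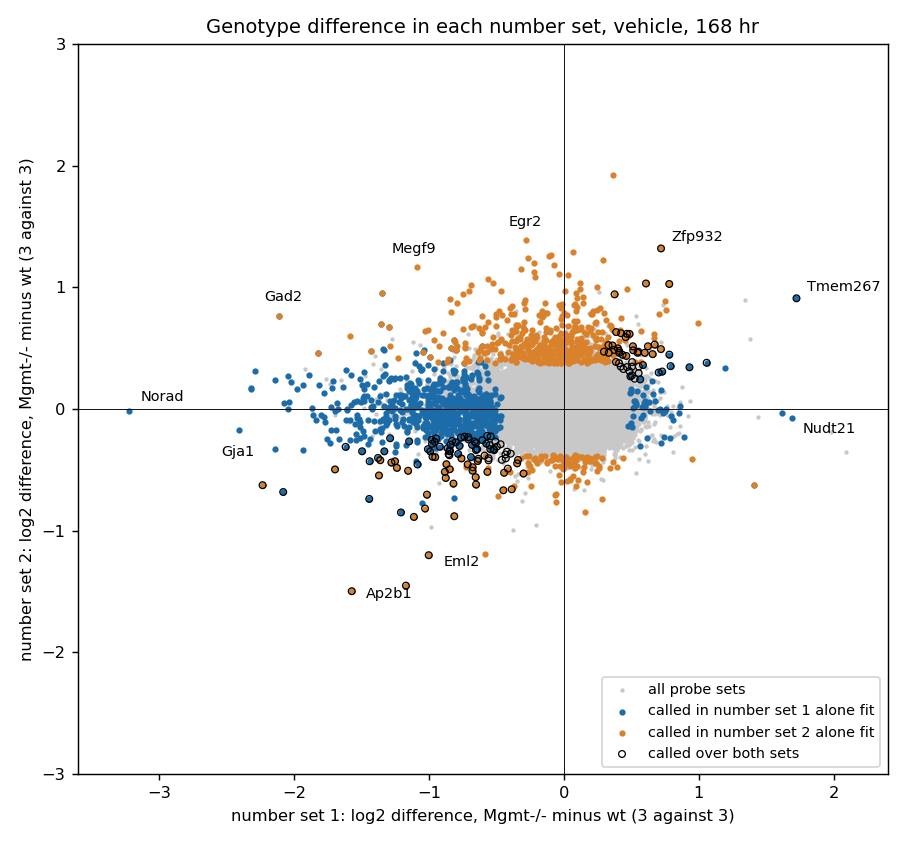
Log2 difference, Mgmt-/- minus wt, of each probe set in number set 1 (horizontal) and number set 2 (vertical), 3 against 3 animals each; blue and orange mark probe sets called in a set fitted alone, black rings those called over both sets. The ringed probe sets lie in the lower left and upper right, most blue points spread left along the horizontal axis, and most orange points lie above it.

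Genes named for 1 number set were chosen after their values were seen, and each value is that of 1 probe set. Norad, a cytoplasmic long RNA that binds Pumilio proteins, was, on this probe set, 8.11, 6.64 and 6.88 in Mgmt-/- animals and 10.40, 10.48 and 10.41 in wt animals of set 1. In set 2 it was 8.31, 8.14 and 8.15 in Mgmt-/- animals and 8.14, 8.24 and 8.29 in wt animals. The genotypes differed by -3.22 in set 1 and by -0.02 in set 2, and the difference between sets was 3.20 (adjusted p = 0.00117, limma). Its brightest probe set, with a mean of 12.82 in Mgmt-/- brain and 12.83 in wt brain, had 0.04 in set 1 and -0.06 in set 2. Gja1, the main gap junction connexin of astrocytes, was, on 1 of its probe sets, 7.58, 7.29 and 7.57 in Mgmt-/- animals and 9.78, 10.004 and 9.88 in wt animals of set 1, and 8.08, 7.82 and 8.01 in Mgmt-/- animals and 8.05, 8.23 and 8.16 in wt animals of set 2. Again only the wt animals of set 1 were high (-2.41 and -0.18, interaction adjusted p = 3.14e-05, limma). The other 5 Gja1 probe sets had -0.49 to -0.15 in set 1. Rbbp4, a histone chaperone, had -2.14 and -0.33, with -0.09 and -0.24 on its brightest probe set, and Map2, the dendritic microtubule protein, had -2.32 and 0.17, with -0.30 and 0.07 on its brightest. Nudt21, a subunit of the cleavage factor that chooses polyadenylation sites, ran the other way, with 1.69 in set 1 and -0.08 in set 2, and its other 3 probe sets had -0.07 to 1.62 in set 1. Gad2, a GABA-synthesizing enzyme, and Megf9, a membrane protein with EGF-like domains, had opposite signs on the probe sets chosen, with -2.11 and 0.76 for Gad2 and -1.09 and 1.16 for Megf9. The other, brighter probe set had 0.11 and 0.15 for Gad2 and -0.14 and 0.14 for Megf9.

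Levels at earlier times were set beside those at 168 hr to see which animals of set 2 were unlike the others, and this depended on the probe sets. On the same probe set Norad in wt brain of set 2 was 10.32 to 10.62 at 6 hr, 10.28 to 10.52 at 24 hr, 9.40 to 10.29 at 48 hr and 8.14 to 8.29 at 168 hr. In Mgmt-/- brain of set 2 it was 8.01 to 8.31, 7.60 to 7.79, 8.27 to 8.40 and 8.14 to 8.31 at the same times. The wt animals of set 2 were thus at the Mgmt-/- level at 168 hr and well above it before. Nudt21 in wt brain of set 2 was 8.08 to 8.18 at 6 hr, 7.97 to 8.04 at 24 hr, 7.52 to 7.97 at 48 hr and 9.50 to 9.67 at 168 hr, against 9.19 to 9.66 over all times in Mgmt-/- brain of set 2. The median level of the probe sets lower in set 1 alone gives the same order. On the arrays of set 2 at 168 hr it was 6.93 to 6.97 in Mgmt-/- brain and 6.94 to 6.96 in wt brain, whereas at 6, 24 and 48 hr it was 6.61 to 6.99 in Mgmt-/- brain and 7.17 to 7.68 in wt brain. In set 1 the medians at 168 hr were 6.48 to 6.82 in Mgmt-/- brain and 7.58 to 7.68 in wt brain, with 6.82 to 7.17 and 7.46 to 7.71 at the earlier times. The probe sets were chosen on set 1 at 168 hr, so its gap there is a description and the other values were not used in the choice. The 487 probe sets higher in set 2 alone gave another order. Their median level in Mgmt-/- brain of set 2 was 7.03, 7.13 and 7.13 at 6, 24 and 48 hr and 7.34 at 168 hr. In wt brain of set 2 it was 7.15, 6.99, 6.75 and 6.77. Here the Mgmt-/- level was higher at 168 hr than before, and the wt level was near that at 48 hr. These were chosen on set 2 at 168 hr, so its gap there is a description. Ap2b1, Eml2, Rian and Zfp932 were apart by genotype in set 2 at 168 hr as in set 1. They were called in a fit that held these same arrays, which favors this, so it is no check of the genotype labels.

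The ends of the RNA differed between genotypes as well. The array carries probe sets at the 3' and 5' ends of Gapdh and beta-actin, and the mean of their 3' minus 5' log2 values (RNA 3'/5' index) rises as RNA is degraded or labeled less fully. The index was 0.583, 0.792 and 0.581 in Mgmt-/- animals and 0.308, 0.352 and 0.348 in wt animals of set 1, and 0.393, 0.467 and 0.493 in Mgmt-/- animals and 0.430, 0.396 and 0.399 in wt animals of set 2. The genotypes were far apart in set 1 and overlapped in set 2. The difference was 0.179 (exact permutation p = 0.02 within number sets, two-sided, the smallest possible being 0.005), with 0.316 in set 1 and 0.0426 in set 2. It was 0.120 at 6 hr, 0.154 at 24 hr, 0.0927 at 48 hr and 0.0802 after MAM at 168 hr (exact permutation p = 0.005, 0.005, 0.025 and 0.0333). In wt brain of set 2 the index was 0.396 to 0.430 at 168 hr and 0.268 to 0.373 at earlier times. With the index as a covariate 6 of these 50 and 95 called probe sets passed: Ap2b1, Eml2, Timmdc1, which assembles mitochondrial complex I, Zfp932, and those shared by Ube2l3 and by Tmem254. All 50 and all 95 kept their sign, with medians of 0.40 for those higher (0.49 without the covariate) and -0.40 for those lower (-0.59 without it). The part of RNA quality in the falls was not tested beyond this fit.

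**Figure D3:**
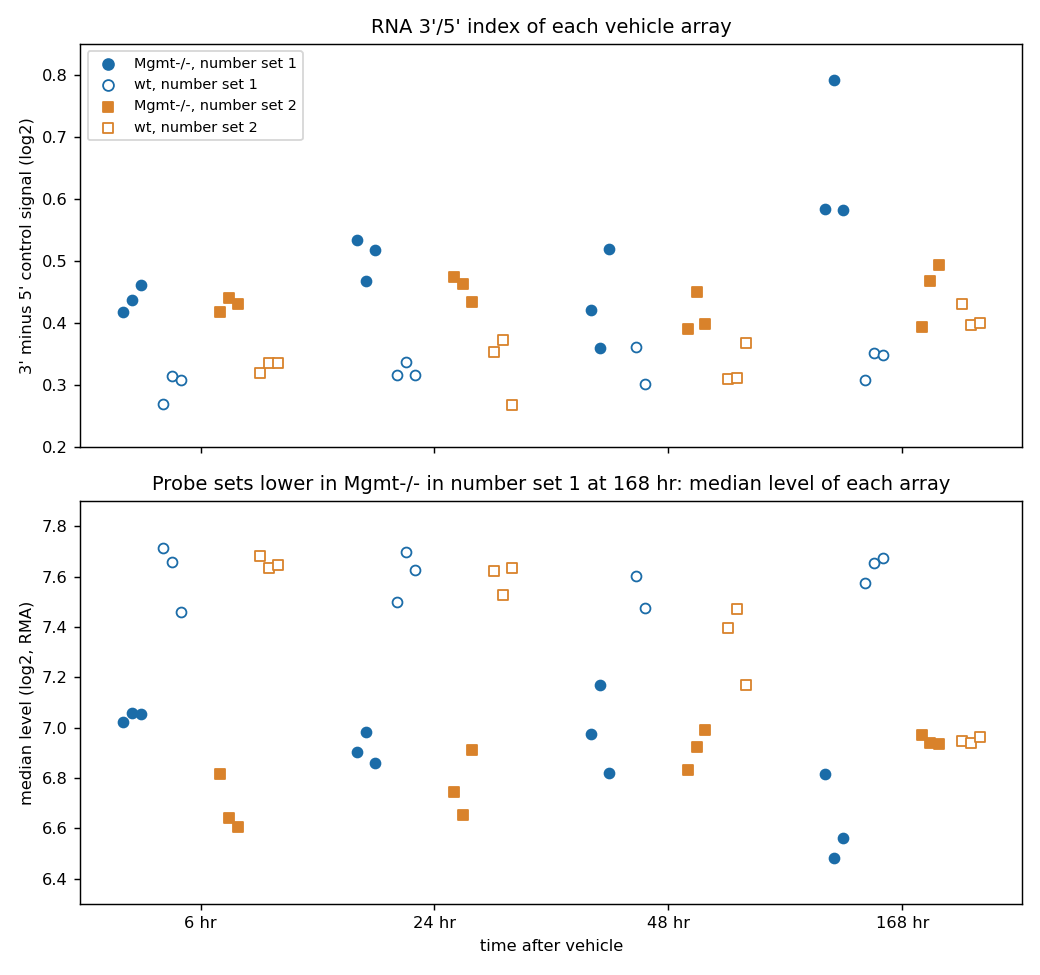
Upper panel, RNA 3'/5' index (log2, 3' minus 5' signal of Gapdh and beta-actin) and lower panel, median log2 level of the probe sets lower in Mgmt-/- brain in number set 1 at 168 hr, for each of the 47 vehicle arrays by time; filled symbols are Mgmt-/- and open symbols wt, circles set 1 and squares set 2. At 168 hr the open squares meet the filled squares in both panels, and the filled circles are farthest from the open circles.

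Other animals gave the same direction at other times. The comparisons at 6, 24 and 48 hr and after MAM share no array with that at 168 hr. In each of them the RNA index was also higher in Mgmt-/- brain, and its part in the recurrence was not tested. Of the 95 probe sets called lower, 79 were called lower at 6 hr (83.2%, against 2.92% of all probe sets), 79 at 24 hr (83.2%, against 5.38%), 60 at 48 hr (63.2%, against 1.85%) and 58 after MAM at 168 hr (61.1%, against 1.39%). Of the 50 called higher, 18 were called higher at 6 hr (36%, against 0.798%), 27 at 24 hr (54%, against 2.01%), 22 at 48 hr (44%, against 1.17%) and 4 after MAM (8%, against 0.355%), and 0 were called the other way in any of these. Of the 50 and 95, 11 and 55 were called the same way at every vehicle time, and 3 and 38 of these also after MAM at 168 hr. Ap2b1 differed by -1.76, -1.38 and -1.33 at 6, 24 and 48 hr and by -1.47 after MAM at 168 hr, and Zfp932 by 1.01, 0.96 and 1.04 and by 1.06.

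**Figure D4:**
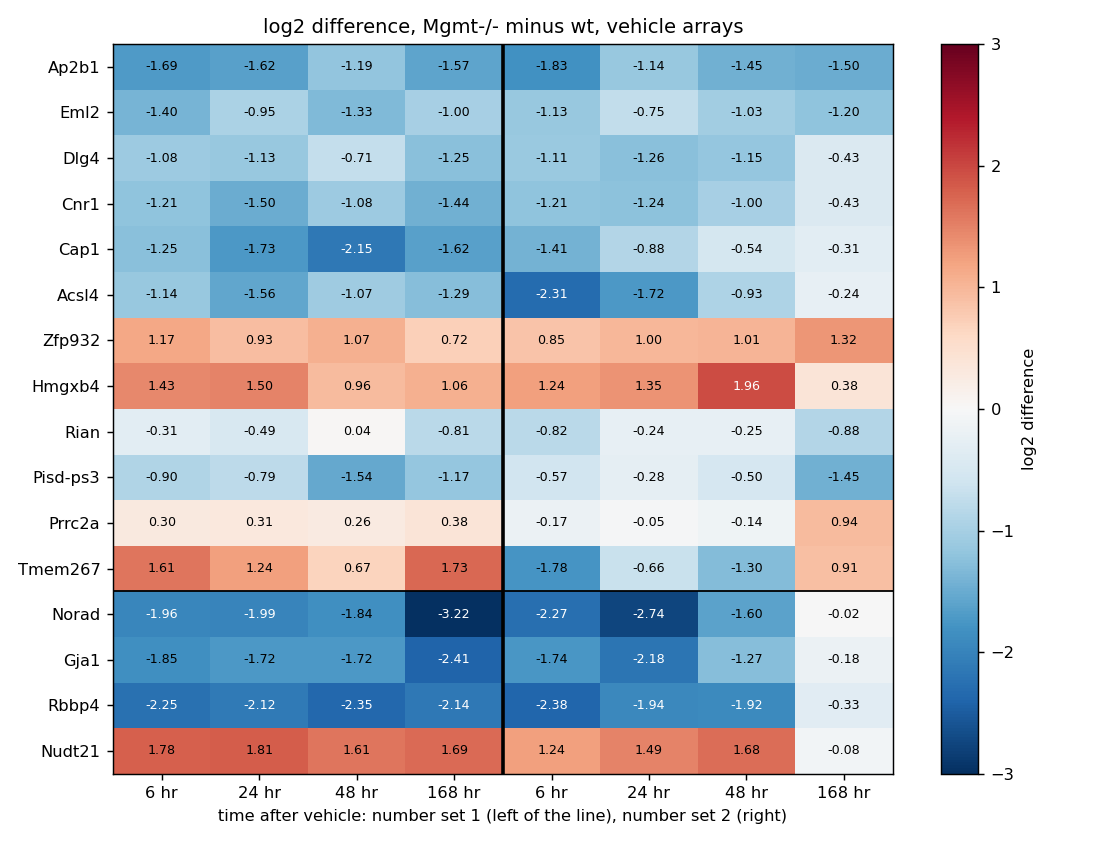
Log2 difference, Mgmt-/- minus wt, in vehicle arrays at 6, 24, 48 and 168 hr (columns) in number set 1 (left of the vertical line) and set 2 (right), for 12 genes called at 168 hr and, under the horizontal line, 4 genes chosen for their difference between sets, each gene on 1 probe set; blue is lower and red higher in Mgmt-/- brain. Norad, Gja1, Rbbp4 and Nudt21 differ strongly in 7 of the 8 columns and little in set 2 at 168 hr.

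Of the probe sets lower in set 1 alone at 168 hr, 566 were called lower at 6 hr (79.4%, against 2.92% of all probe sets), 616 at 24 hr (86.4%, against 5.38%) and 367 at 48 hr (51.5%, against 1.85%), in fits over both number sets. Of the 487 higher in set 2, 36, 76 and 62 were called higher at these times (7.39, 15.6 and 12.7%, against 0.798, 2.01 and 1.17% of all probe sets). Both shares were above those of all probe sets at each time, and most probe sets that rose in set 2 were not called at the earlier times. As these fits pooled both number sets, they can miss a difference held by set 2 alone. They do not tell whether the rises of set 2 were absent from set 2 earlier.

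A difference at 168 hr was tested against the mean of the earlier times in 1 fit of the 47 vehicle arrays, and 39 probe sets passed (0.0865%), 5 of them among those called at 168 hr. Prrc2a, a protein with proline-rich repeats that binds RNA, differed by 0.66 at 168 hr (0.38 and 0.94 by set) and by 0.07, 0.13 and 0.04 at 6, 24 and 48 hr (difference 0.58, adjusted p = 0.0460, limma). It was 9.88, 9.98, 9.72, 9.07, 9.002 and 9.32 in the Mgmt-/- animals and 9.40, 9.36, 9.68, 7.93, 8.31 and 8.32 in the wt animals. The wt animals of set 2 stood out, with 8.97 to 9.52 in wt brain of that set at the earlier times. Hmgxb4, an HMG-box protein, was on 1 probe set higher by 0.72 at 168 hr (1.06 and 0.38) and by 1.34, 1.43 and 1.51 earlier. Its smaller difference at 168 hr (-0.71, adjusted p = 0.0439, limma) also lay in wt animals of set 2, at 6.77 to 7.03 against 5.23 to 5.95 before. The brightest probe set of Hmgxb4 had 0.005 at 168 hr and the remaining one -0.11. Rbfox2, a splicing regulator named after its values were seen, was lower by 0.56 at 168 hr (-0.45 and -0.67) and differed by -0.02, 0.25 and 0.03 earlier (difference -0.65, adjusted p = 0.0460, limma). It was 8.27, 7.63, 7.78, 8.35, 8.04 and 7.998 in the Mgmt-/- animals and 8.57, 8.22, 8.23, 8.78, 8.87 and 8.74 in the wt animals. In all 24 probe sets, 16 higher and 8 lower, were called at 168 hr and at no earlier vehicle time, and 2 of these passed the time test.

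A call on 1 probe set was often not shared by the gene's other probe sets. Of the 70 genes lower, 57 had another probe set, and the medians were -0.59 for the called and -0.03 for the brightest other one, which had the same sign in 35. Of the 38 genes higher, 28 had another, with medians of 0.44 and 0.10. Another probe set was called in 6 of the 57 and in 0 of the 28. In set 1 alone the genes lower had -0.91 and -0.06 (516 genes with another probe set), and in set 2 alone the genes higher had 0.51 and 0.10.

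No repair gene was called over both sets, where 0.594% of all genes were called. At that share 0 calls in a short list say little about its genes. The 1 probe set of Mgmt, on chromosome 7 at 136894463 to 137128193 (GRCm38.p6), was 5.64, 5.97, 6.15, 5.70, 5.70 and 5.52 in the Mgmt-/- animals and 5.68, 5.61, 5.76, 5.84, 5.80 and 5.83 in the wt animals. The genotypes overlapped, with 0.02 over both sets, 0.23 in set 1 and -0.19 in set 2. Its place with respect to the removed part is unknown here, so it is no check of the genotype labels. Of 24 measured genes of alkylation, mismatch and base excision repair 0 were called by limma and 2 had p under 0.05 without adjustment (12.9% of all genes had), and the list held Mpg, the alkyladenine glycosylase (0.01), Msh6, which recognises mismatches (0.11), Parp1, which senses strand breaks (-0.03), and Mbd4, a glycosylase of mismatches (-0.18). Of 25 targets of p53, the transcription factor of the DNA damage response, 0 were called by limma and 4 had p under 0.05 without adjustment, with Cdkn1a at 0.05, Mdm2 at -0.09 and Gadd45b at 0.27. The list medians were 0.01 and 0.02, against 0.02 over all genes.

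**Figure D5:**
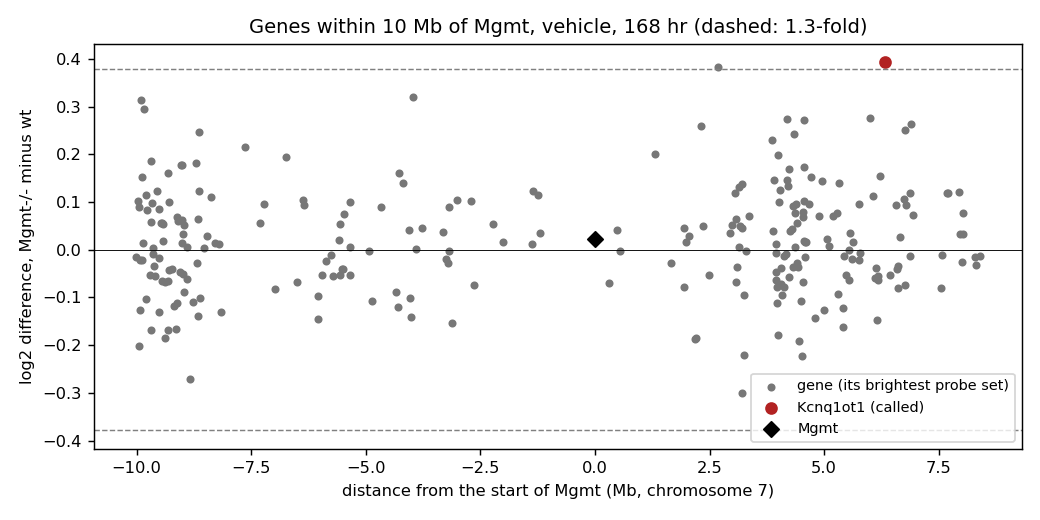
Log2 difference, Mgmt-/- minus wt, of the genes within 10 Mb of Mgmt on chromosome 7 (brightest probe set of each, by distance from the start of Mgmt in Mb), with Kcnq1ot1 on its called probe set; dashed lines mark 1.3-fold. The 260 genes lie between -0.30 and 0.39, and only Kcnq1ot1 is called.

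Genes around a targeted locus can carry DNA of the strain in which the mutation was made, and they were counted for that reason. Of 260 genes within 10 Mb of Mgmt, 30 had p under 0.05 without adjustment (11.5%, against 12.9% of all genes), and 1 was called (0.594% of all genes were). It was Kcnq1ot1, the imprinted antisense RNA of the Kcnq1 domain, with 5.95, 6.05, 5.89, 5.95, 6.09 and 6.02 in the Mgmt-/- animals and 5.35, 5.68, 5.63, 5.67, 5.72 and 5.54 in the wt animals. The values did not overlap, and the difference was 0.39 (SE 0.07, adjusted p = 0.0289, limma; 0.41 and 0.38 by set). Its other 5 probe sets had -0.06 to 0.46. On the autosomes and the X chromosome the share of genes called was 0.312 to 1.11%, highest on chromosome 11 with 13 lower and 3 higher of 1443 genes, among them Ap2b1, Dlg4, Eif4a1, Hnrnpab and Cnp.

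Most cell type and pathway lists held 0 or 1 called gene, where 0.594% of all genes were called. Their counts of p under 0.05 without adjustment stand against 12.9% of all genes. No list was tested as a set, so 0 or 1 call supports no statement on a list. Less RNA of a cell type's genes and fewer cells of that type cannot be told apart in a half-brain. Of 22 oligodendrocyte and myelin genes 1 was lower, Cnp, the cyclic nucleotide phosphodiesterase of myelin (-0.59, with -0.84 and -0.34 by set, and -0.25 and -0.16 on its other 2 probe sets), and in set 1 alone Cnp, Mog, Ugt8a, Mal and Tspan2 were lower, each by at least 1 probe set (3.07% of all genes were). Mbp differed by 0.03. Of 19 microglia genes 0 were called and 6 had p under 0.05 without adjustment, with a median of -0.16 (-0.28 in set 1, where 2 of 19 had positive differences, and 0.05 in set 2). P2ry12, the purinergic receptor of resting microglia, had -0.78 in set 1 and 0.08 in set 2 (interaction adjusted p = 0.0203, limma). Of 19 astrocyte genes 0 were called and 4 had p under 0.05 without adjustment, with a median of 0.03. Of 24 neuronal genes only Camk2a was called, with a median of 0.04. Pde10a, the phosphodiesterase of striatal neurons, was lower (-0.83, with -1.16 and -0.51), as the 1 of 21 striatal genes, and its other 4 probe sets had -0.46 to -0.03. Pdia3, a disulfide isomerase, was the 1 of 24 endoplasmic reticulum chaperones (-0.50, with -0.76 and -0.24), Insig1, the sterol sensor that holds back SREBP, the 1 of 20 cholesterol synthesis genes (-0.40, with -0.35 and -0.45), Ndufa4, of respiratory complex IV, the 1 of 35 oxidative phosphorylation genes (-0.43, with -0.52 and -0.34) and Tsc22d3, a glucocorticoid-induced leucine zipper, the 1 of 28 glucocorticoid-responsive genes (-0.47, with -0.71 and -0.23), all lower. Gabrg3, a subunit of the GABA-A receptor, was the 1 of 30 glutamate and GABA receptor genes (-0.40, with -0.43 and -0.37). Of 20 genes of the olfactory bulb and neuroblasts 0 were called and 5 had p under 0.05 without adjustment. Their median was 0.23 (0.20 in set 1, 0.30 in set 2), with 0.79 for Cdhr1, a cadherin of mitral cells, and 0.52 for Pbx3. Cdhr1 varied from animal to animal, with 9.0, 8.5, 8.3, 8.8, 6.3 and 6.2 in Mgmt-/- animals 1 to 6. In wt animals 1 to 6 it was 8.1, 6.5, 8.9, 6.4, 6.1 and 6.2. The genotypes overlapped, and in set 2 only Mgmt-/- animal 4 was high. The 19 liver genes had a median of -0.26, 0 calls and 0 with p under 0.05 without adjustment, beside the albumin levels given for single animals. The other lists of tissues and pathways held 0 called genes and had medians from -0.10 to 0.15, except the nuclear long RNAs, with Kcnq1ot1 higher and Rian lower.

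Immediate early genes, which neurons switch on within minutes of activity, had medians of opposite sign in the number sets, and the difference between sets was not tested for the list. In set 2 alone 8 of 26 were called higher (1.95% of all genes were) and 22 of 26 had positive differences, with a median of 0.31. In set 1 alone 3 were called lower (3.07% of all genes were) and 8 were positive, with a median of -0.15. Over both sets 0 were called by limma (0.594% of all genes were) and 7 had p under 0.05 without adjustment. Fos, the activity-induced subunit of AP-1, was 9.86, 9.79 and 9.67 in Mgmt-/- animals and 9.39, 8.22 and 8.25 in wt animals of set 2, and 9.29, 7.96 and 8.96 in Mgmt-/- animals and 8.45, 9.40 and 9.32 in wt animals of set 1. Mgmt-/- animals were uniformly high in set 2, and the genotypes overlapped in set 1. The differences were 1.15 and -0.32, and the test of the difference between sets missed the threshold (adjusted p = 0.145, limma). Egr2 had 1.39 in set 2 and -0.28 in set 1, Arc, a synaptic plasticity protein, 0.86 and 0.08, and the nuclear receptor Nr4a1 0.81 and 0.09. The Egr2 and Fos values of Mgmt-/- brain in set 2 were also above those of wt brain of set 2 at 6, 24 and 48 hr. Of 21 hypothalamic neuropeptide genes 5 were called higher in set 2 alone (1.95% of all genes were): Oxt (0.59), Pmch (0.63), Hcrt (0.43), Tac2 (0.48) and Nts (0.38). In set 1 these had -0.21, -0.61, -0.30, -0.09 and -0.02, without a call.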

How the data were processed

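The authors hybridised total RNA of 1 half-brain per animal to Affymetrix mouse whole-genome arrays and deposited log2 values made by robust multi-array averaging (RMA in affy, per the labels: background correction, quantile normalization and median polish). Neither the versions nor the set of arrays that entered the normalization could be learned from the sources used here, and the labels and the study's methods describe different RNA extractions. Of 45101 probe sets, 34958 named 1 gene, 932 several and 9211 none by GEO's platform annotation; 34754 matched current symbols and 0 changed.

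Genotype was fitted with number set as a block (R 4.3.3, limma 3.58.1), with Benjamini-Hochberg adjustment over all probe sets, and calls needed an adjusted p under 0.05 and a change over 1.3-fold. Each number set, each other vehicle time and MAM at 168 hr (without 1 Mgmt-/- array that carries liver transcripts) were fitted likewise. The number set marks the series of animal numbers, not matched animals. On data simulated for the 168 hr comparison with 45101 probe sets the fit called 91% of 100 probe sets changed 1.5-fold and 98% of 100 changed 2-fold, with 5 unchanged ones. The simulated noise was independent between probe sets, and these changes were equal in both number sets. The shares hold for that simpler case and are no measure of sensitivity on the real arrays. The number of arrays limits the precision.

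Named genes were Mgmt, the 12 largest rises and 12 largest falls among called genes with the same sign in both sets, called members and the 2 largest differences of each of 35 gene lists, called neighbours of Mgmt and the 5 called probe sets with the largest number-set interaction, and others are said to be chosen after their values were seen. The members and lists were chosen with earlier results of these data known.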

Additional observations from a re-analysis of the deposited data

Results flagged for a closer look

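In 5 of 138 groups of 6 values compared, 1 animal lay far from the other 5 of its genotype. The cutoff would pass about 1 in 20 groups drawn from 1 normal distribution, but these groups pooled both number sets and shared arrays. The 5 are therefore listed without a comparison with chance, and no conclusion is drawn from their number. Pde10a was 6.17 in Mgmt-/- animal 1 and 5.31 to 5.62 in the other Mgmt-/- animals, and 1 probe set of Entpd4 and Entpd4b was 9.05 there and 8.59 to 8.76 in the others. A second probe set of Ube2l3 and related sequences was 9.70 in Mgmt-/- animal 2 and 9.94 to 10.07 in the others. A second called probe set of Eif4a1 was 8.81 in the same animal and 9.42 to 9.77 in the others. Akap9, a kinase anchor chosen after its values were seen, was 7.52 in wt animal 1 and 5.83 to 6.34 in the other wt animals.

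The genotype difference was not the same in the 2 number sets for the probe sets that follow (limma interaction), each of which was described or chosen here and which are not all of those that passed. Set 2 minus set 1 was positive for falls that were larger in set 1: 0.82 for Dlg4 (adjusted p = 0.00701), 0.97 for Eif4a1 (0.00489), 1.31 for Cap1 (0.00117), 1.01 for Cnr1 (0.0104), 0.94 for Qk (0.0104), 0.53 for Pdia3 (0.0411) and 1.05 for Acsl4 (7.75e-04). On further probe sets it was 1.61 for Dlg4 (0.00152) and 1.20 for Eif4a1 (0.0146), and it was 0.87 for P2ry12 (0.0203), which was not called over both sets. It was 1.15 for the probe set of Twf1, an actin-binding protein, and Gm4887 (0.00439) and 0.98 for that of the mRNA export factors Alyref and Alyref2 (0.0104). For another probe set of Entpd4 and Entpd4b, a rise that was larger in set 1, it was -0.59 (0.0412).

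Among genes chosen after their values were seen, each on 1 probe set, it was 3.20 for Norad (0.00117), 2.23 for Gja1 (3.14e-05), 2.88 for Gad2 (0.00297), 2.50 for Map2 (0.0081), 1.81 for Rbbp4 (1.74e-04), -1.77 for Nudt21 (3.14e-05), 2.25 for Megf9 (0.00152) and -1.004 for Rora, a nuclear receptor (0.00307).

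The genotype difference at 168 hr minus the mean of those at 6, 24 and 48 hr passed the test for Prrc2a (0.58, adjusted p = 0.0460, limma), for Rbfox2 (-0.65, adjusted p = 0.0460, limma) and for Hmgxb4 (-0.71, adjusted p = 0.0439, limma).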

How the results depend on the processing

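The genes called, 0.594% of all (108), were 0.165% (30) without the replicate block for number set and 0.236% (43) with a filter like that of the methods, on number-set interactions. In a model of all 168 hr arrays, 1 of which carries liver transcripts, they were 0.011% (2) with such a filter and 0.731% without that array and the filter. This model resembles that of the methods but is not the same. It put number set in the place of laboratory, used limma, and left out the interaction of number set with genotype and treatment together. The genes called were 1.78% with all 47 vehicle arrays in 1 fit, 0.0769% (14) with an ordinary linear model and 0.022% (4) with the RNA index as a covariate. They were 3.35 and 2.53% (609 and 461) in number sets 1 and 2 alone, 0.352% (64) with 1 probe set per gene and 0.137 to 0.654% without 1 animal. Without Mgmt-/- animals 2 and 3 and wt animal 3 together, a choice made after seeing the data, they were 0.462% (84), and number set 1 alone gave 0.209% (38) in place of 3.35%. Array weights, an intensity trend, cyclic loess, quantile normalization of the 12 arrays, no fold threshold and leaving out dim probe sets kept the count within 1.5 times. The animal numbers carry no pairing within a set. The probe sets of the interaction test, 2.34% of all (1054), were 0.721% with the ordinary linear model, 1.21% (546) without the same 3 animals and 0.993 to 12.7% (448 to 5733) without 1 animal. Those of the time test, 0.0865% (39), were 0.155% (70) without dim probe sets, 0.0931% (42) without wt animal 3 and 0% without the block (2867 with p under 0.05 unadjusted, limma). The RNA index difference of 0.179 was 0.148 without the 3 animals (exact permutation p = 0.0667) and 0.144 to 0.197 without 1 animal. Mgmt, which was not called, changed sign with array weights (-0.0729), the RNA index (-0.151), in set 2 alone (-0.187), without the 3 animals (-0.132) and when some single animals were left out (-0.0511 to 0.0724). Of the 49 named probe sets, 18 kept their result and 31 lost the call without the block, and 5 kept it and 43 lost the call with the RNA index. The causes were not tested.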
